A study of Mus musculus with 8 samples.

Results

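The claudin and tight junction genes described here are 9 genes whose symbols were looked up in a table of 45777 genes: the claudins Cldn1, Cldn5 and Cldn12, occludin (Ocln), the scaffold gene Tjp1, the junctional adhesion molecule genes F11r, Jam2 and Jam3, and Esam. All 9 were found, and all 9 passed the filter on low counts. They were measured in primary hepatic stellate cells, pericytes of the liver that hold retinoids and turn into myofibroblasts on injury or in culture. The mice were male, wild-type and of strain C57BL/6, which all groups share. Cells received either a control siRNA (siControl, 4 libraries) or an siRNA against the kinase PAK4 (siPAK4, 4 libraries) during activation, and the comparison asked how their transcriptome differs when PAK4 is low. The labels put all 8 libraries in one batch, give no age, and do not say whether replicates came from separate animals or dishes, so the spread between replicates may be technical. The 9 genes were proposed with the siPAK4 and siControl values of these libraries in view, so their differences are given as a description, without a test.

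Tight junctions are belts of transmembrane strands that close the space between neighbouring epithelial or endothelial cells. Claudins form the strands, occludin joins them, and ZO-1, the product of Tjp1, ties them to the actin cytoskeleton on the inner side. The junctional adhesion molecules and Esam are immunoglobulin-fold proteins of the same contacts, also found on leukocytes and platelets. In liver, junctions of this kind seal bile canaliculi and bile ducts and join endothelial cells, with claudin-5 known as an endothelial claudin and claudin-1 as one of hepatocytes and bile duct cells.

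Libraries held between 55728583 and 61535063 counts. Pak4 itself checked the labels: it had 915 to 1028 counts with siControl and 311 to 447 with siPAK4. One library stood apart: siPAK4 replicate 3 parted from the other siPAK4 libraries on the second principal component (13.4% of the variance). Differences of the members that rest on it, and some counts of the gene lists, are given with and without it. Transcripts of other liver cells were present in both groups. Summed TPM (transcript abundance corrected for gene length and depth) of 12 macrophage markers was 17236 to 19805 in siControl, that of 18 endothelial markers 4929 to 5131, and that of 13 stellate cell markers 898 to 1089. Of the defining stellate markers, Col1a2 averaged 262 TPM and Des 12.5 TPM in siControl, while Lrat had 0 to 4 counts per siControl library. The junction transcripts cannot be assigned to a cell type here, and in such bulk RNA fewer cells of a type and less RNA per cell cannot be told apart.

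Measured per length, the 9 genes spanned more than 2 orders of magnitude. In siControl the order by mean TPM ran from Esam (308 ± 11.6, SD, n = 4) through Cldn5 (204 ± 23.6), Tjp1 (167 ± 17.7), F11r (140 ± 6.90), Jam2 (76.0 ± 8.89), Jam3 (58.8 ± 6.35), Cldn12 (18.3 ± 1.80) and Cldn1 (14.8 ± 0.499) to Ocln (1.38 ± 0.304). In that order only Cldn5 and Tjp1 overlapped as neighbours between libraries. The order of the means was the same in siPAK4, but there Esam (273 ± 39.5), Cldn5 (253 ± 62.4), Tjp1 (183 ± 36.7) and F11r (154 ± 33.6) overlapped from each to the next. Cldn1 (1.93 ± 0.591 TPM) came down to the range of Ocln (1.42 ± 0.352 TPM). The 9 genes together gave 970 to 1007 TPM in the siControl libraries and 754 to 1204 TPM in the siPAK4 libraries, with the lowest sum in siPAK4 replicate 3.

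**Figure D1:**
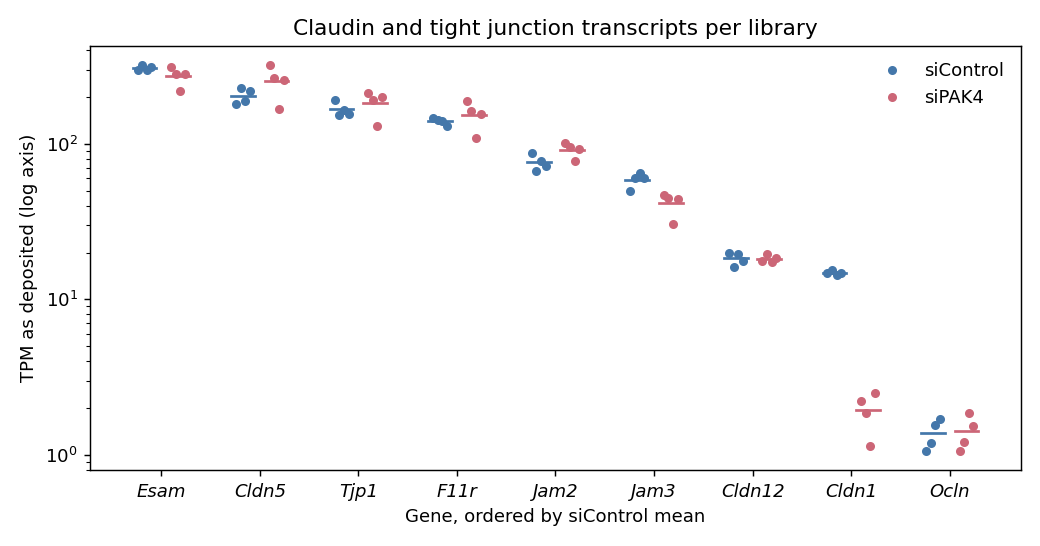
TPM values as deposited (log axis) of the 9 genes, ordered by their siControl mean, with 1 point per library and a bar at the mean of each group of 4. Cldn1 is the gene whose groups lie farthest apart, with 14.3 to 15.5 TPM in siControl and 1.14 to 2.51 TPM in siPAK4.

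The siPAK4 and siControl groups differed in 26.9% of 17975 tested genes (edgeR's quasi-likelihood test, Benjamini-Hochberg adjusted p below 0.05), with 12.4% higher and 14.5% lower. Among the 9 genes, 3 were past that threshold, 1 of them higher (Jam2) and 2 lower (Cldn1 and Jam3). The 2 groups did not overlap in CPM (counts scaled to the TMM-adjusted library size) in 28.8% of tested genes and in 2 of the 9, Cldn1 and Jam3. Since the members were proposed from this comparison, nothing is read from these counts. The median log2 fold change was −0.04 over the 9 genes and 0.01 over all tested genes.

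Cldn1, the sealing claudin of epithelial cells (NCBI gene 12737, mm10 chromosome 16, 26356645 to 26371839), was the member with the widest gap between groups. In replicates 1 to 4 of siControl it had 1205, 1314, 1277 and 1305 counts, and in those of siPAK4 180, 153, 109 and 226 counts. In CPM these were 21.8, 23.5, 21.7 and 23.1 against 3.11, 2.60, 1.81 and 3.85. Every siPAK4 library was far below every siControl library, the lowest being siPAK4 replicate 3. The mean went from 22.5 ± 0.916 to 2.84 ± 0.857 CPM, 7.91-fold lower (log2 fold change −2.98, SE 0.171). Without siPAK4 replicate 3 the log2 fold change was −2.82 (SE 0.117). Only 16 of the 17975 tested genes had a more negative log2 fold change. The siControl libraries agreed closely on this gene, with a coefficient of variation of 4.07%, against 30.1% among the siPAK4 libraries.

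Cldn5, the claudin of endothelial barriers (NCBI gene 12741, chromosome 16, 18776847 to 18778262), was the claudin with the highest level per length. It measured 116, 151, 124 and 150 CPM across the siControl libraries, in replicate order, and 196, 161, 117 and 173 CPM across the siPAK4 libraries. In siPAK4, 3 libraries lay above all siControl libraries, and replicate 3 lay at the low end of the siControl range, so the groups overlapped. The log2 fold change was 0.26 (SE 0.139) with all libraries and 0.38 (SE 0.106) without siPAK4 replicate 3, where the groups no longer overlapped. Cldn12, a claudin without the PDZ-binding tail of most others (NCBI gene 64945, chromosome 5, 5505015 to 5514976), had a small spread. Its CPM was 34.4, 28.3, 34.4 and 32.4 in siControl and 28.9, 31.9, 32.5 and 32.8 in siPAK4 (log2 fold change −0.04, SE 0.0758), and the groups overlapped fully.

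Shares of the claudin transcripts show the same values on one scale. Over all claudins in the table, summed TPM was 231 to 274 in siControl and 203 to 354 in siPAK4. Cldn5 made up 78.0% to 83.4% of that sum in siControl libraries and 83.2% to 90.3% in siPAK4 libraries. Cldn1 made up 5.54% to 6.37% and 0.560% to 0.844%, and Cldn12 5.84% to 8.63% and 5.001% to 8.596%. The shares of Cldn1 did not overlap between groups, whereas those of Cldn5 touched at their ends and those of Cldn12 overlapped.

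The sequences upstream of Cldn1 and Cldn5 are shown because they are the claudin with the widest gap between groups and the claudin with the highest level, both on chromosome 16. Each is the 250 bases before the annotated start, from RefSeq on GRCm38.p6 (the build also called mm10), written along the gene's strand. Cldn1 is on the minus strand at chr16:26371840-26372089 and Cldn5 on the plus strand at chr16:18776597-18776846. Capitals mark the GC box GGGCGG on either strand.
Cldn1: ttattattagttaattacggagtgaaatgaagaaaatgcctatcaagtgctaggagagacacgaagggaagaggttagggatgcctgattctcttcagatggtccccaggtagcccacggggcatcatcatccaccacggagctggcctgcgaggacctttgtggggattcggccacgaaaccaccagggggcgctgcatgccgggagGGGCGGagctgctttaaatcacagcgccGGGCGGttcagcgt
Cldn5: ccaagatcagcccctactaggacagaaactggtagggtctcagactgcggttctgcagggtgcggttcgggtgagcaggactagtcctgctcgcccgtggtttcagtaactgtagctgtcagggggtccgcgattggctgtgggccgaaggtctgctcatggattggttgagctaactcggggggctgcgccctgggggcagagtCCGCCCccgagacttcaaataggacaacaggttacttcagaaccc
The Cldn1 run holds this box 42 and 14 bases before the start, and the Cldn5 run holds it 45 bases before the start. It is in at least 1 window of each of the 6 members that had one (Cldn1, Cldn5, Cldn12, Tjp1, Ocln and F11r), and in 35.7% of all 32851 windows of 300 bases (250 before to 50 after a start). Cldn12 and Ocln had more than 1 window, so the count by member and the share of windows are unlike measures. Windows of the members were 45.3% to 68% G and C, with 10 to 31 CG pairs. Medians over all windows were 52.7% and 7. A further 4 motifs were searched on both strands in those windows, and none of the 5 contains another. CAGGTG, the E-box bound by Snail factors, was in the windows of 2 members (Ocln and F11r) and in 20.2% of all windows. CCGGAA, an ETS motif, was in those of 2 (Cldn12 and Ocln) and in 14.9%. TGANTCA, the AP-1 motif, was in 1 (F11r) and in 7.81%, and GGAATG, a TEAD motif, in 0 and in 14.7%. Cldn1 and Cldn5 held none of these 4. Promoters of Jam2, Jam3 and Esam were not used here.

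By the GENCODE M21 principal transcripts, Cldn5 lies in 1 exon (218 residues), Cldn12 has its coding sequence in 1 of 5 exons (244 residues), and Cldn1 spans 4 exons (211 residues). F11r, Jam2 and Jam3 have 10, 10 and 9 exons and 300, 298 and 310 residues, and Esam 7 exons and 394 residues. Ocln has 9 exons (521 residues) and Tjp1 28 exons (1745 residues).

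Occludin, the tetraspan protein of the strands (NCBI gene 18260, chromosome 13, 100496504 to 100552718), was scarce. Its counts were 110, 117, 168 and 181 with siControl and 99, 122, 196 and 152 with siPAK4, in replicate order. These are 1.99 to 3.20 CPM and 1.71 to 3.26 CPM, ranges that overlapped almost fully (log2 fold change −0.07, SE 0.219). Unlike most members, Ocln was highest, not lowest, in siPAK4 replicate 3, and its log2 fold change without that library was −0.26 (SE 0.208).

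Tjp1, which encodes the scaffold ZO-1 (NCBI gene 21872, chromosome 7, 65296165 to 65527850), was the member with the most counts. Its CPM was 607, 498, 531 and 521 in siControl and 635, 571, 439 and 650 in siPAK4. The groups overlapped because siPAK4 replicate 3 was the lowest of all 8 libraries and siControl replicate 1 was high. The log2 fold change was 0.09 (SE 0.112), and 0.20 (SE 0.0682) without siPAK4 replicate 3.

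The 3 junctional adhesion molecules did not share a direction. F11r, which encodes JAM-A (NCBI gene 16456, chromosome 1, 171437561 to 171464593), measured 165, 166, 163 and 156 CPM in siControl and 203, 175, 132 and 183 CPM in siPAK4. Here too 3 siPAK4 libraries lay above every siControl library and replicate 3 lay below them all (log2 fold change 0.09, SE 0.104, and 0.20, SE 0.0536, without it). Jam2, which encodes JAM-B (NCBI gene 67374, chromosome 16, 84774123 to 84826380), measured 193, 150, 174 and 167 CPM in siControl and 211, 198, 183 and 209 CPM in siPAK4. It was slightly higher in siPAK4, with only siControl replicate 1 inside the siPAK4 range (log2 fold change 0.23, SE 0.0769, and 0.27, SE 0.0682, without siPAK4 replicate 3). Jam2 was past the threshold in 11 of 19 fits, and no longer so without any 1 of siControl replicates 2, 3 and 4 or of siPAK4 replicates 1, 2 and 4, with log2(TPM + 1) or with every gene with a read tested. Jam3, which encodes JAM-C (NCBI gene 83964, chromosome 9, 27097384 to 27155421), measured 48.9, 60.0, 59.3 and 62.4 CPM in siControl and 43.7, 41.6, 31.8 and 40.8 CPM in siPAK4. All siPAK4 libraries were below all siControl libraries, 1.46-fold lower in the fit (log2 fold change −0.55, SE 0.103, and −0.46, SE 0.0801, without siPAK4 replicate 3).

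In TPM, the share of Jam3 in the sum of the 3 genes was 17.6% to 23.0% in siControl libraries and 14.0% to 15.0% in siPAK4 libraries, without overlap. Jam2 held 24.7% to 30.9% and 30.0% to 35.8%, and F11r 49.6% to 53.0% and 50.1% to 56.0%, both overlapping. The sum itself was 263 to 284 TPM in siControl and 216 to 337 TPM in siPAK4.

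Esam, an adhesion molecule of endothelial junctions and platelets (NCBI gene 69524, chromosome 9, 37528089 to 37538319), had the highest level per length of the 9. It measured 252, 277, 258 and 282 CPM in siControl and 252, 224, 199 and 245 CPM in siPAK4. In siPAK4, 3 libraries lay below the lowest siControl library and replicate 1 lay just above it (log2 fold change −0.22, SE 0.0757, and −0.16, SE 0.0602, without siPAK4 replicate 3).

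**Figure D2:**
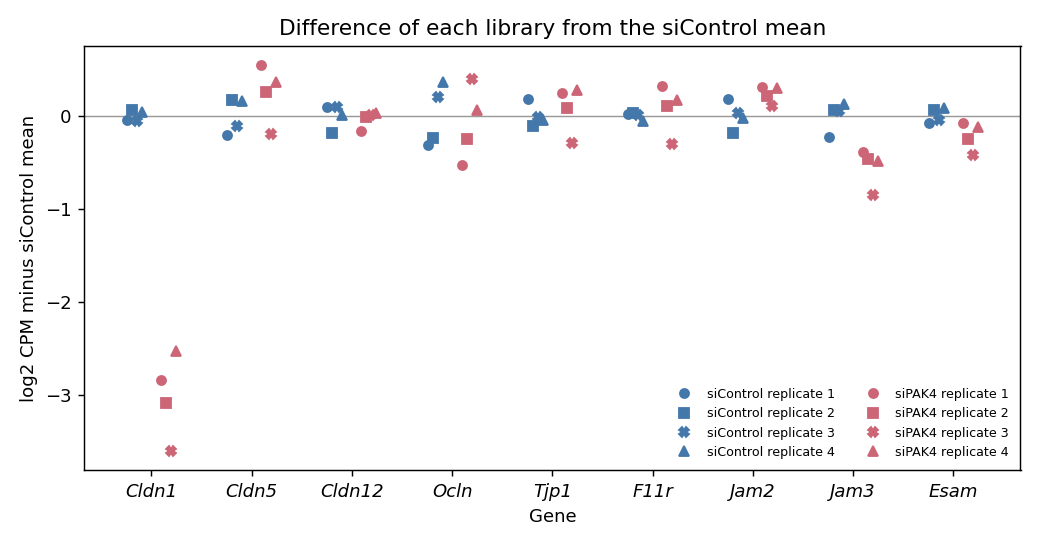
log2 CPM of each library minus the siControl mean, for each of the 9 genes, with 1 marker shape per replicate number. siPAK4 replicate 3 (red cross) is the lowest siPAK4 library for 7 of the 9 genes, and Cldn1 alone lies more than 2 below the siControl mean in every siPAK4 library.

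Library siPAK4 replicate 3 was the lowest siPAK4 library in CPM for 7 members (Cldn1, Cldn5, Tjp1, F11r, Jam2, Jam3 and Esam) and the highest for 1 (Ocln). Without it, 6 of the 9 were past the threshold, 4 higher (Cldn5, Tjp1, F11r and Jam2) and 2 lower (Cldn1 and Jam3), where 30.2% of all tested genes were. Endothelial markers were also low in it, though not they alone. Their summed TPM was 3100 in siPAK4 replicate 3, 4337 to 4867 in the other siPAK4 libraries, and 4929 to 5131 in siControl. Of the pathway lists given below, replicate 3 was also lowest for plaque and polarity genes (726 against 876 to 966 TPM in the other siPAK4 libraries). So it was for nectins (104 against 140 to 153 TPM) and transcription factors (401 against 541 to 600 TPM). For the other pathway lists it lay inside the range of the other siPAK4 libraries. Macrophage markers stood the other way, at 14524 TPM in siPAK4 replicate 3 and 10015 to 10547 TPM in the other siPAK4 libraries, with 83.6% to 89.6% of each sum from Lyz2. Of the 18 endothelial markers 4 were higher and 8 lower by the same test, and Cdh5 (log2 fold change −0.63, adjusted p = 0.0102) and Emcn (−1.08, adjusted p = 1.21e-06) fell, while Egfl7 rose (0.28, adjusted p = 0.0169, not past the threshold without siControl replicate 1, siControl replicate 3 or siPAK4 replicate 1). None of these markers was at 0. Their part in the junction gene values was not tested.

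For Jam3 and Esam, the comparison of ratios to an endothelial transcript in the same library depended on the transcript chosen. For Cldn5, F11r and Jam2 the ratio was higher in siPAK4 without overlap, both to Pecam1 and to Cdh5. No other marker of the endothelial list was used as a reference. Mean TPM of both references was lower in siPAK4 than in siControl (Pecam1 647 against 705, Cdh5 583 against 870). Of the 18 endothelial markers 4 rose, among them Egfl7 (930 TPM in siPAK4 against 742 TPM in siControl). Ratios to those, which could differ, were not taken. The ratio of Cldn5 to Pecam1 in TPM, the latter an endothelial and leukocyte adhesion molecule, was 0.260 to 0.322 in siControl and 0.340 to 0.440 in siPAK4, siPAK4 replicate 3 included. For F11r to Pecam1 it was 0.183 to 0.210 and 0.219 to 0.260, and for Jam2 to Pecam1 0.0942 to 0.126 and 0.133 to 0.156. For Jam3 it was 0.0717 to 0.0920 and 0.0617 to 0.0671, lower without overlap. For Esam it was 0.425 to 0.451 and 0.403 to 0.442, which overlapped. With Cdh5, the endothelial cadherin, as the reference, the ratio of Jam3 overlapped (0.0532 to 0.0765 in siControl and 0.0642 to 0.0868 in siPAK4) and that of Esam was higher in siPAK4 without overlap (0.318 to 0.398 and 0.427 to 0.621). The ratio of Cldn5 to Cdh5 was 0.193 to 0.277 in siControl and 0.404 to 0.479 in siPAK4. For F11r to Cdh5 it was 0.156 to 0.165 and 0.244 to 0.307, and for Jam2 to Cdh5 0.0751 to 0.0937 and 0.137 to 0.220. Pecam1 itself did not pass the test (log2 fold change −0.17, SE 0.0862, adjusted p = 0.179), which does not show that it was equal between groups.

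Most mesothelial markers were lower in siPAK4, as Cldn1 was. Of the 8, 6 fell by the same test and 2 did not pass. Those 2, named after their values were seen, were Msln (log2 fold change −0.01, adjusted p = 0.979) and Gpm6a (−0.13, adjusted p = 0.453). Without siPAK4 replicate 3, 7 fell, Gpm6a among them, and 1 did not pass. The summed TPM of the 8 was 179 to 234 in siControl and 74.3 to 101 in siPAK4. The surface genes Upk3b (log2 fold change −2.10, adjusted p = 8.24e-06), Upk1b (−1.16, adjusted p = 7.95e-05) and Lrrn4 (−1.02, adjusted p = 0.000321) fell. The mucin gene Muc16, named after its value was seen, fell by about as much as the difference in Cldn1 (−2.82, SE 0.280, adjusted p = 3e-05). Among the siPAK4 libraries, replicate 3 had the lowest Cldn1 and the highest mesothelial sum. The ratio of Cldn1 to Upk3b in TPM was 0.232 to 0.284 in siControl and 0.0854 to 0.233 in siPAK4, which just overlapped. With Msln as the reference it was 14.1 to 34.1 and 1.36 to 3.97, lower in siPAK4 without overlap. The comparison thus depended on the marker chosen. The part of mesothelial cells in the Cldn1 values was not tested.

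Markers of the other cell types known for Cldn1 were mixed. Among 10 cholangiocyte markers 7 were tested, with 2 rising, 1 falling and 4 not passing. Without siPAK4 replicate 3, 2 rose, 3 fell and 2 did not pass. The sum of the 10 was 1700 to 2413 TPM in siControl and 1668 to 2148 TPM in siPAK4. Spp1, which macrophages also express, gave 99.2% to 99.6% of it. Spp1 did not pass with all libraries (log2 fold change −0.24, adjusted p = 0.211) and fell without siPAK4 replicate 3 (−0.37, adjusted p = 0.0183). Epcam had 0 to 16 counts per library, and Krt19, a bile duct keratin, averaged 2.59 TPM in siControl and 2.48 TPM in siPAK4 (log2 fold change −0.10, adjusted p = 0.731). The chloride channel gene Cftr fell (−0.31, adjusted p = 0.0291), a call lost in 9 of 18 alternative fits, among them those without siControl replicates 2, 3 or 4 or siPAK4 replicate 4. Among 10 hepatocyte markers 5 were tested, with 2 rising, 1 falling and 2 not passing, and sums of 488 to 629 TPM in siControl and 453 to 591 TPM in siPAK4, of which the transferrin gene Trf and the urea cycle gene Ass1 gave 97.2% to 99.7%. The albumin gene Alb rose from 1.80 to 8.40 TPM (log2 fold change 2.17, adjusted p = 0.000309). Trf fell (−0.34, adjusted p = 0.0327, lost in 9 of 18 alternative fits, among them those without any 1 siControl library or without siPAK4 replicate 3), and Ass1 did not pass (0.12, adjusted p = 0.463).

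Of 11 macrophage markers tested 8 fell and 3 did not pass, with falls of Lyz2 (log2 fold change −0.69, adjusted p = 0.00545) and C1qc (−1.95, adjusted p = 0.000116), and Cd68 not past the test (−0.04, adjusted p = 0.719). Of 12 stellate markers tested 6 fell, 1 rose and 5 did not pass, with falls of Col1a1 (−1.42, adjusted p = 0.00139) and Col1a2 (−1.25, adjusted p = 6.9e-05), while Dcn did not pass (0.17, adjusted p = 0.148). Their sum was 742 to 949 TPM in siPAK4. Of 3 platelet markers tested 2 rose, Pf4 (0.42, adjusted p = 0.0158) and Ppbp (1.502, adjusted p = 2.2e-05), and Itga2b did not pass (−0.12, adjusted p = 0.571). Their levels were far apart, with siControl means of 1030 TPM for Pf4, 8.58 TPM for Ppbp and 2.58 TPM for Itga2b. Gp9, also on the list, had 0 to 18 counts per library. Which cells gave the Pf4 and Ppbp transcripts was not tested. The 5 lymphocyte markers, Cd3e, Nkg7 and Cd79a among them, had too few reads to test, with a summed TPM of 0.178 to 0.874.

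**Figure D3:**
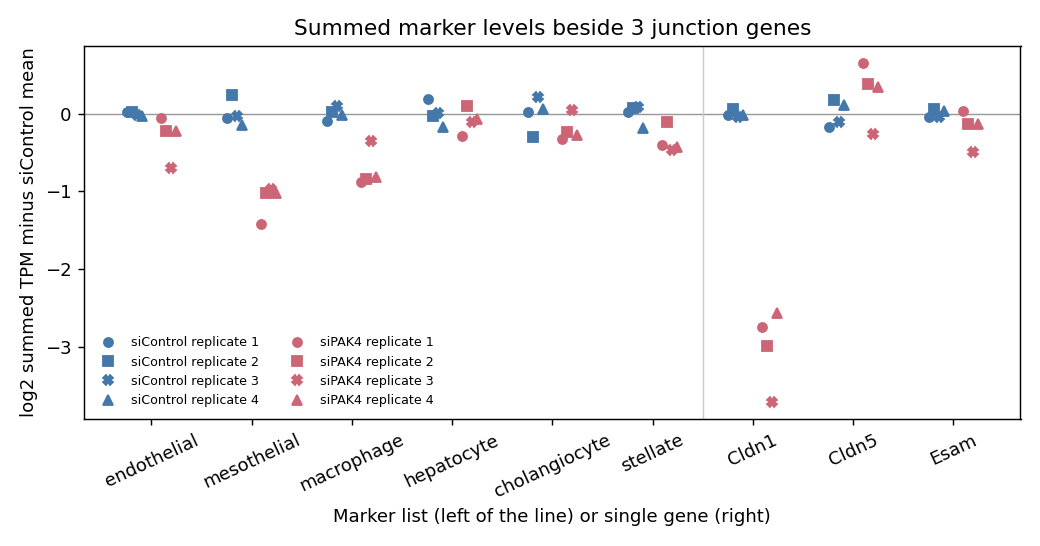
log2 of the summed TPM of 6 marker lists (left of the line) and of Cldn1, Cldn5 and Esam (right), each library minus the siControl mean. The endothelial sum, Cldn5 and Esam are lowest in siPAK4 replicate 3 (red cross), and the mesothelial sum is below siControl in all 4 siPAK4 libraries.

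Genes with a profile like that of Cldn1 were sought by the root-mean-square difference of log2 CPM over the 8 libraries, each gene centred on its own mean. Cldn1 was the single member whose log2 CPM spanned at least 1 (it spanned 3.67). The nearest genes with a mean of at least 5 CPM were Msc, which encodes a basic helix-loop-helix factor (difference 0.222), and Gna14, which encodes a G protein alpha subunit (difference 0.276). In replicate order, Msc had 506, 546, 616 and 521 counts with siControl against 116, 84, 55 and 115 with siPAK4. Gna14 had 744, 815, 857 and 850 counts against 195, 132, 78 and 135. Both were, like Cldn1, lowest in siPAK4 replicate 3, which their choice by profile over the same 8 libraries makes likely.

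The genes next to the 9 members on their chromosomes were looked up, taking the nearest protein-coding gene on each side. Of these 18 genes 15 had enough counts for the test, and 10 of those did not pass, 3 rose and 2 fell, against the 26.9% of all genes past the threshold. Cldn16, the next gene after Cldn1 at 91.3 kb, had 0 reads in every library. P3h2, the next before it at 250.8 kb, did not pass (log2 fold change 0.31, SE 0.151, adjusted p = 0.154). These neighbours were chosen by position, after the differences of the members were known.

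The other genes of the pathway came from 6 lists with 103 genes, of which 67 had enough counts. Of these 6 rose, 14 fell and 47 did not pass, with a median log2 fold change of −0.05 against 0.01 over all tested genes, of which 26.9% were past the threshold. The other claudins had few reads. Of 31, 13 had no read in any library, 10 had at most 59 reads over all 8 libraries, and 8 were tested, with siControl means of 0.171 to 7.80 TPM. Cldn11, a claudin of myelin and Sertoli cells, was the single one past the threshold, with 7 to 18 counts in the siControl libraries against 16 to 84 in the siPAK4 libraries, ranges that overlapped (log2 fold change 1.87, SE 0.466, adjusted p = 0.0117). Cldn3, the most abundant of them and an epithelial claudin, did not pass (0.23, SE 0.186, adjusted p = 0.401). Cldn10 (−0.71, adjusted p = 0.0589), Cldn4 (−0.78, adjusted p = 0.0912), Cldn23 (1.02, adjusted p = 0.0614), Cldn15 (−0.21, adjusted p = 0.616), Cldn34c1 (0.45, adjusted p = 0.082) and Cldn34c2 (0.29, adjusted p = 0.582) did not pass either. The last 2 belong to a cluster of similar copies, so their separate values are uncertain. Without siPAK4 replicate 3 Cldn4 also passed (−1.19, adjusted p = 0.00608). Without siPAK4 replicate 4 Cldn10 (−0.91, adjusted p = 0.0279) and Cldn34c1 (0.55, adjusted p = 0.0421) passed. Cldn10 and Cldn4 also passed with limma-voom (adjusted p = 0.0445 and 0.0483) and with log2(TPM + 1) (0.0257 and 0.042), and Cldn10 with both FPKM fits (0.0295 and 0.038). Cldn23 passed with library totals (adjusted p = 0.0375), with log2(TPM + 1) (0.0379) and with both FPKM fits (0.0314 and 0.0211), and Cldn34c1 with library totals (0.0384).

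Relatives of the junctional adhesion molecules and proteins of tricellular contacts had 7 members with enough counts: 3 fell, 1 rose and 3 did not pass. Over all tested genes, 26.9% were past the threshold. Cxadr, the adenovirus receptor at epithelial contacts, went from 110 ± 5.43 to 74.2 ± 10.9 CPM and so fell (log2 fold change of −0.57, SE 0.0952, adjusted p = 0.00107). Its relative Clmp rose from 24.3 ± 3.80 to 40.0 ± 4.60 CPM (0.72, SE 0.113, adjusted p = 0.000741). Of the angulins, which mark corners where 3 cells meet, Ildr2 fell from 30.2 ± 2.29 to 15.5 ± 3.86 CPM (−0.96, SE 0.149, adjusted p = 0.000712) and the scarce Lsr fell (−0.50, SE 0.141, adjusted p = 0.0219). The call of Lsr was lost without siControl replicate 2 (adjusted p = 0.0657) and without siPAK4 replicate 2 (adjusted p = 0.0664), and with the replicate block (adjusted p = 0.0515).

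Of 31 tested genes of the cytoplasmic plaque and of cell polarity, 2 rose, 4 fell and 25 did not pass, where 26.9% of all tested genes were past the threshold. Without siPAK4 replicate 3, 5 rose, 6 fell and 20 did not pass, where 30.2% of all tested genes were past it. Crb2, an apical polarity gene, fell (11.1 ± 1.40 CPM against 5.89 ± 1.06 CPM, log2 fold change −0.92, SE 0.136, adjusted p = 0.00047). Cgn, which encodes the plaque protein cingulin, fell from 4.49 ± 0.435 to 2.83 ± 0.562 CPM (−0.67, SE 0.153, adjusted p = 0.00734), and Amot (angiomotin) fell (−0.43, SE 0.0978, adjusted p = 0.00726, lost with TPM and FPKM values). Ybx3, which encodes a Y-box factor that binds ZO-1, rose from 96.1 ± 2.17 to 129 ± 3.95 CPM (0.43, SE 0.0482, adjusted p = 7.2e-05). Of the 4 nectins, 0 passed by edgeR and 0 by DESeq2, and 2 had an unadjusted p below 0.05 in each. Nectin2 was at −0.03 (adjusted p = 0.821) and Nectin3 at −0.11 (adjusted p = 0.36). Without siControl replicate 4 or siPAK4 replicate 1 Nectin1 passed, and without siPAK4 replicate 3 Nectin4 passed (both named after their values were seen).

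All 6 integrin genes whose products bind junctional adhesion molecules fell. Itgb1, the shared beta-1 chain, averaged 1632 ± 70.9 CPM in siControl and 1148 ± 57.4 CPM in siPAK4 (log2 fold change −0.51, SE 0.0625, adjusted p = 0.000133). Leukocyte chains Itgal (−0.68, adjusted p = 0.000692), Itgax (−0.86, adjusted p = 0.00155) and Itgb2 (−0.43, adjusted p = 0.00632) also fell. Macrophage markers, which share the cell type of these leukocyte chains, were lower in the same libraries, and their part in these values was not tested.

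Of 11 tested transcription factors known to act on junction genes, 2 rose, 1 fell and 8 did not pass. Over all tested genes, 26.9% were past the threshold, a share close to that of this list. Snai1, a repressor of claudin and occludin genes, fell (1.66 ± 0.131 CPM against 0.894 ± 0.160 CPM, log2 fold change −0.89, SE 0.181, adjusted p = 0.0037). Twist1 rose from 4.48 ± 0.243 to 5.98 ± 0.506 CPM (0.42, SE 0.102, adjusted p = 0.0106), and Ets1, an endothelial and lymphoid factor, rose from 334 ± 10.5 to 433 ± 63.3 CPM (0.37, SE 0.0933, adjusted p = 0.0117). Without siPAK4 replicate 3 the 6 lists had 68 genes with enough counts, of which 11 rose, 19 fell and 38 did not pass. In that fit 30.2% of all tested genes were past the threshold.

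**Figure D4:**
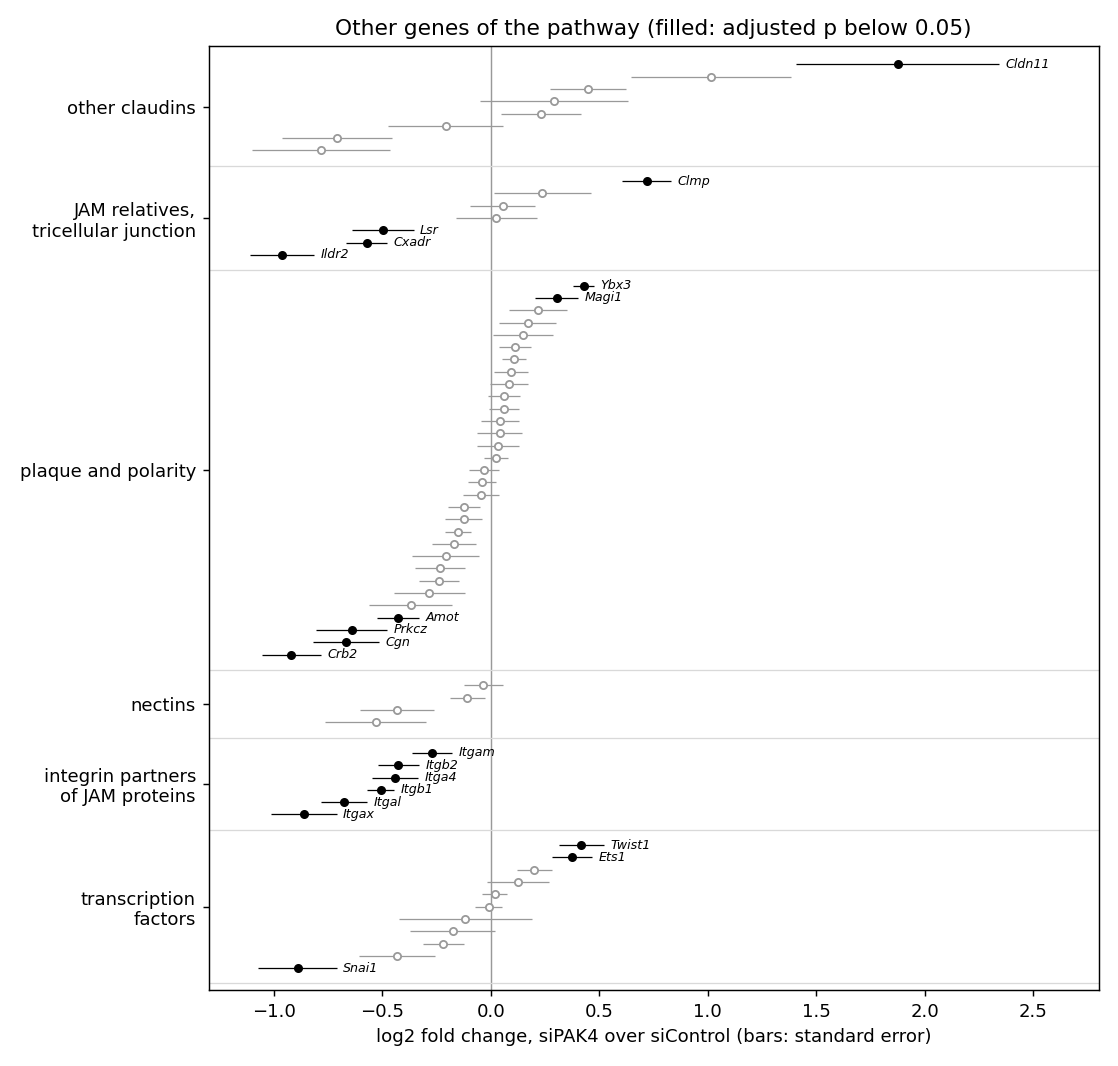
log2 fold change (siPAK4 over siControl) with its standard error for the 67 tested genes of 6 lists, 4 libraries per group. Filled and named points are the 20 past an adjusted p of 0.05 (6 higher and 14 lower), and the 6 integrin genes are all on the lower side.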

How the data were processed

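RNA was sequenced from 4 siControl and 4 siPAK4 libraries. The single deposited table held whole-number read counts, used as the authors deposited them, and FPKM and TPM values scaled by the authors, per the file headers. Per the submitters' processing notes, the tools included StringTie 2.1.3b and HISAT2 2.1.0, and the build was mm10. The sources used here name neither the counting step nor its strand setting. Per the labels' protocols, a stranded mRNA kit was used.

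Counts were filtered by filterByExpr (minimum count 10), scaled by TMM and compared by edgeR 4.0.16 (quasi-likelihood, robust), with Benjamini-Hochberg adjustment over 17975 genes and a threshold of 0.05. Standard errors came from the F statistic. DESeq2 1.42.0 and limma 3.58.1 served as alternatives. The procedure was tested on simulated data. Deposited TPM was used to compare levels between genes, and ratios and shares. Each library counted as 1 sample. Replicates of a group differed beyond sampling noise (chi-square per degree of freedom 12.7 to 67.8), which does not show whether they came from separate animals or dishes.

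The members and all lists were chosen with earlier results of these data known. Named were Pak4, the 9 members, every tested other claudin, up to 4 past-threshold genes with the smallest adjusted p per pathway list (2 by TPM where none passed), 3 markers per list by TPM, and 2 nearest profiles. Pals1 was matched as Mpp5. Positions are RefSeq's on GRCm38.p6, which matched 45679 of 45777 gene identifiers, counted from 1. One result on a plaque gene is not reported here.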

Additional observations from a re-analysis of the deposited data

Results flagged for a closer look

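Among 112 groups of 4 values (56 named genes in 2 groups), 5 held a library whose gap to its nearest neighbour, over the group's range, was above Dixon's critical value, where chance gives about 1 in 20. None was a group of the 9 junction genes. Cxadr was low in siControl replicate 4 (102 CPM, against 112 to 114 CPM in the others) and in siPAK4 replicate 1 (58.1 CPM, against 77.5 to 80.9 CPM). Nectin2 was low in siPAK4 replicate 3 (101 CPM, against 132 to 136 CPM). Trf was low in siPAK4 replicate 1 (213 CPM, against 302 to 315 CPM), and Itga2b was high in that library (4.84 CPM, against 3.37 to 3.54 CPM).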

How the results depend on the processing

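Over 18 alternative fits the number of tested genes past the threshold was 3839 to 5736 with all libraries, and 3543 to 5494 when leaving out each library in turn. The balance moved with the scaling: 3877 higher and 1859 lower with library totals, and 3619 higher and 1712 lower with log2(FPKM + 1), against 2227 and 2605. Other pathway genes past the threshold numbered 19 to 23 with all libraries, and 17 to 30 when leaving out each library. The count of the 9 members past it was 2 to 4 with all libraries, and 2 to 6 when leaving out each library, 6 being the fit without siPAK4 replicate 3. Cldn1 and Jam3 were past it in 19 of 19 fits and Jam2 in 11. Esam was past it in 3: with DESeq2, with the replicate block and without siPAK4 replicate 1. Cldn1 was at −2.46 with log2(TPM + 1) and −1.97 with log2(FPKM + 1), a scale that understates changes of low genes, and at −3.17 to −2.82 when leaving out each library. The sign of Cldn12 turned in 5 fits and that of Ocln in 6, and no sign of the other 7 did. Of 822 alternative values of 46 other named genes, 27 lost and 16 gained a call and 0 reversed. With the replicate block 4587 genes, 19 other pathway genes and 4 members were past the threshold. Same-numbered libraries deviated together only weakly (r of −0.05 to 0.10 over genes), and 3 of 8 libraries correlated best with their own number, so the numbers were not treated as pairs. Ocln, the scarcest member, is limited by its 99 to 196 counts per library.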

Other observations

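Trp63, which encodes the epithelial factor p63 and lies 464.6 kb from Cldn1 on chromosome 16, was chosen after its values were seen. With siControl it had 12, 12, 10 and 12 counts and with siPAK4 0, 0, 3 and 0 counts, in replicate order, too few to pass the filter for testing. The groups did not overlap, but at these counts no fold is given.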
